A study of Mus musculus with 8 samples.

Results

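The mitochondrial respiratory chain is built from subunits of 2 genomes, and the transcripts described here are those of its nuclear-encoded subunits in visceral white adipose tissue (vWAT). They were chosen by name among protein-coding genes, from the Nduf, Sdh, Uqcr, Cyc1, Cox4 to Cox8 and Atp5 families, and were sorted into complexes I to V. The rule took 87 genes of the 31053 in the table, and 81 of them had enough counts to be tested. Complex I held 36 genes, complex II 4, complex III 9, complex IV 20 and complex V 18. The rule used no measured value. It also took 2 proteins that are close to the chain but are not among its catalytic parts, Atp5s, also named Dmac2l, and Cox7a2l, a factor of respiratory supercomplexes. Ndufa4 and Ndufa4l2 were counted in complex IV, where the NDUFA4 protein resides.

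RNA came from vWAT, called epididymal in the sample titles, of male C57BL/6 mice aged 8 months. There were 4 wild-type (WT) littermates and 4 mice of the KIKO mutant line. The line is altered in the germline, so every cell type of the tissue carries the change. The labels name no treatment, and each library came from a single mouse. Whole tissue was sequenced, so that fewer cells of a type and less RNA per cell cannot be told apart.

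Complexes I and II pass electrons from NADH and succinate to ubiquinone, complex III hands them to cytochrome c, complex IV reduces oxygen, and complex V makes ATP from the proton gradient. Iron-sulfur clusters carry electrons within complexes I, II and III. The comparison of KIKO with WT mice addresses whether the transcripts of the chain differ between the genotypes, and the cluster-bearing subunits are described beside the rest. White adipocytes hold few mitochondria beside brown ones, and some subunits of complex IV have paralogs that muscle and brown fat favour.

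Total counts ranged from 2602189 to 3478539 per library. Mitochondrially encoded genes took 6.91% to 10.7% of WT counts and 9.93% to 10.6% of KIKO counts. Adipocyte markers were abundant in every library, Adipoq lying between 3702 and 6919 CPM (counts per 1000000 counts after TMM scaling). Ucp1, the uncoupling protein that defines brown fat, had at most 1 count in any mouse, and 9 of 11 epididymis markers and 9 of 11 germ cell markers had none. WT mouse 3 lay with the KIKO mice in much of what follows, so values without it are given beside the results they touch. The mouse was singled out by these same values, so p values without it are descriptions and no independent support. Whether the genotype label of this mouse is right was not tested, and each WT mean and fold change takes it as given.

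No subunit transcript passed the test between genotypes, whereas most lay slightly higher in KIKO mice. In edgeR's quasi-likelihood test, 0 of 81 members had a Benjamini-Hochberg adjusted p under 0.05, where 75 of all 11080 tested genes did (0.677%, with 0.280% higher and 0.397% lower). The smallest adjusted p among the members was 0.0841. At an unadjusted p under 0.05, 14 of 81 members were higher in KIKO mice and 0 were lower, beside 7.13% and 9.06% of all genes. The fitted log2 fold change was above 0 for 71 of 81 members, or 87.7%, and for 49.0% of all tested genes. Its median was 0.18 over the members and -0.01 over all genes. The middle of the distribution was narrow, with quartiles at 0.08 and 0.29. DESeq2 passed 2 members, Ndufa1 and Ndufa6, both higher in KIKO mice. It passed 2.52% as higher and 2.26% as lower of the 5941 genes to which it gave an adjusted p, fewer genes than edgeR tested. Without a filter on low counts edgeR passed Ndufa1 and Ndufb2 as higher and Cox6a2 as lower, where 0.807% and 1.30% of the 18092 genes then tested passed in these directions.

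**Figure D1:**
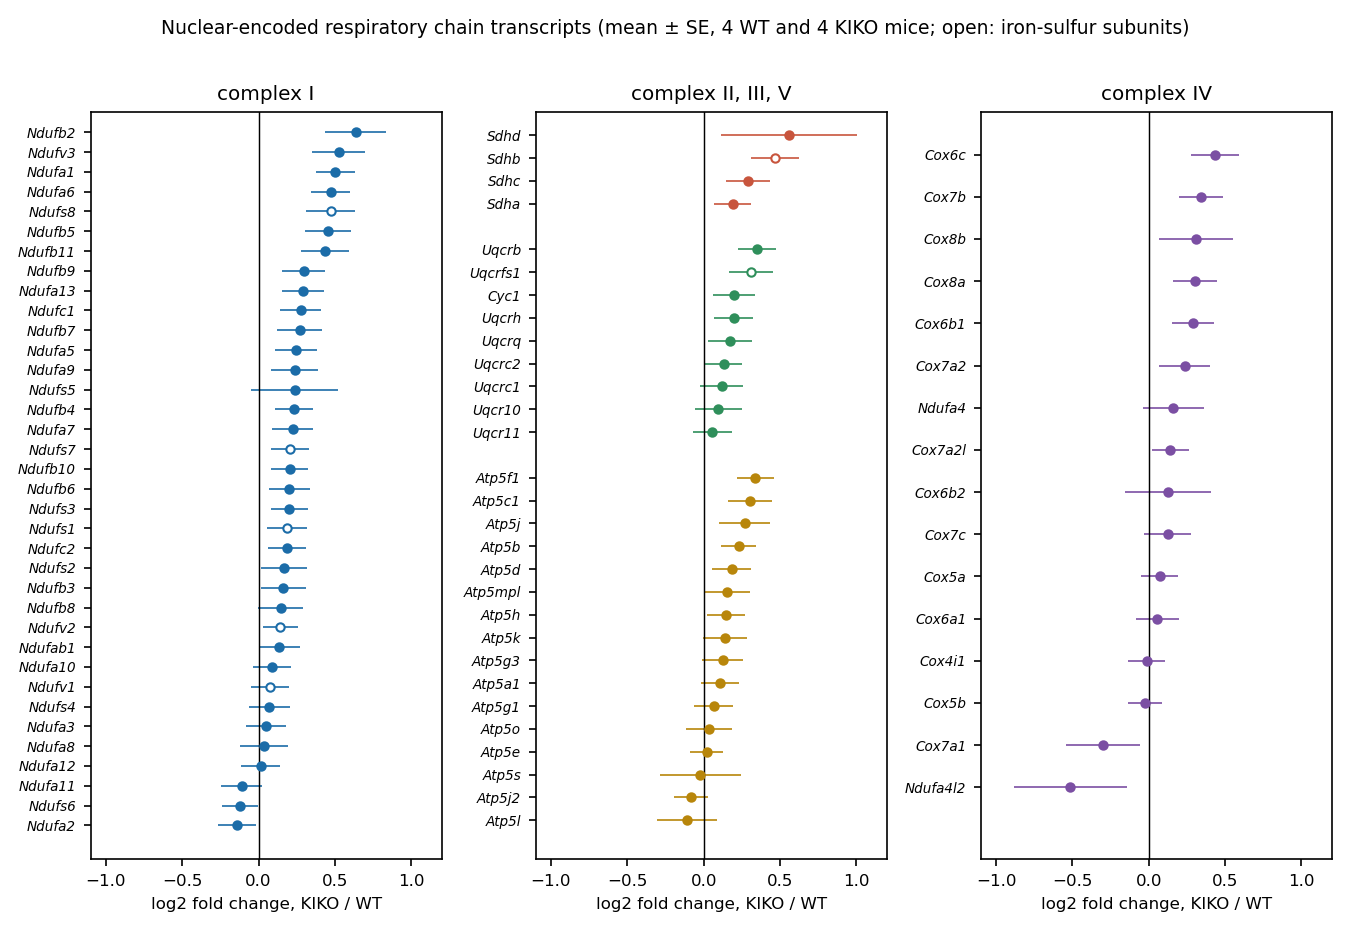
Fitted log2 fold change of each tested subunit transcript between KIKO and WT mice, one point per gene with its standard error, grouped and coloured by complex (open points are iron-sulfur subunits). Most points lie right of 0, from -0.51 for Ndufa4l2 to 0.64 for Ndufb2, and none passed the test.

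The median of each of the 5 complexes lay above 0, except that those of complexes IV and V turned to -0.01 when length was taken from the longest transcript of a gene and its trend removed. The median log2 fold change was 0.38 for complex II, 0.20 for complex I, 0.17 for complex III, and 0.13 for each of complexes IV and V. All 4 members of complex II and all 9 of complex III were above 0, as were 33 of 36 in complex I, 12 of 16 in complex IV and 13 of 16 in complex V. Differences between complexes were not tested, since genes of a complex are not replicates of each other.

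The groups overlapped mouse by mouse. The members' median deviation from the mean of the 8 mice, on the log2 scale, was -0.24, -0.23, 0.16 and -0.02 in WT mice 1 to 4. It was 0.11, 0.15, -0.01 and 0.12 in KIKO mice 1 to 4. WT mice 1 and 2 were lowest, WT mouse 3 was the highest of all 8, and WT mouse 4 and KIKO mouse 3 lay together near the middle. The members together took 1.94%, 1.98%, 2.32% and 2.15% of the counts in the WT mice and 2.30%, 2.32%, 2.10% and 2.29% in the KIKO mice. Without WT mouse 3, 10 members passed, all higher in KIKO mice (Ndufa6, Ndufa13, Ndufb2, Ndufb11, Ndufs8, Ndufv3, Sdhb, Uqcrb, Cox6c and Atp5f1), where 2.53% of all genes passed as higher and 3.28% as lower. The members' median was then 0.25. Since WT mouse 3 was picked for lying with the KIKO mice, its removal widens such differences by its choice. Leaving out any other mouse passed 0 members, with medians from 0.13 to 0.21, and few genes in all. With WT mouse 2 or 4 or KIKO mouse 4 left out 0 of all genes passed, with KIKO mouse 1, 2 or 3 left out 4, 19 or 18 passed, and with WT mouse 1 left out 48 passed.

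**Figure D2:**
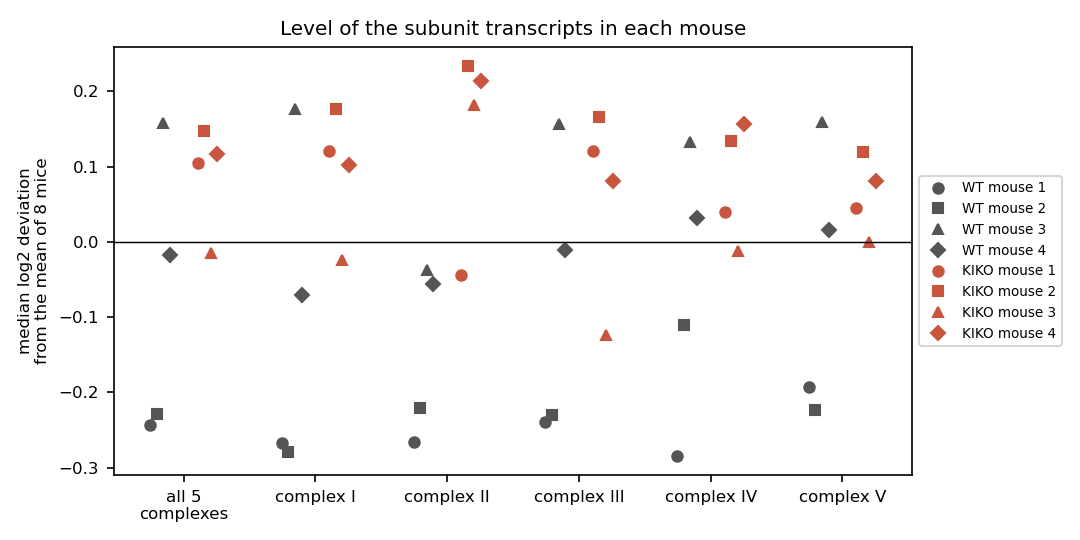
Median log2 deviation of the tested subunit transcripts from their mean over the 8 mice, for all complexes and for each one, with WT mice in grey and KIKO mice in red and 1 symbol per mouse number. WT mouse 3 lies with the KIKO mice at 0.16 for all complexes. For complex II it is at -0.04, beside WT mouse 4 at -0.06 and KIKO mouse 1 at -0.04.

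Only 4 of 81 members (4.94%) had every KIKO mouse above every WT mouse, a share near the 3.89% of all tested genes, and 0 had every KIKO mouse below, beside 4.56% of all genes. These 4 were Ndufa1 and Ndufa6 of complex I, Uqcrb of complex III and Atp5b of complex V, named after their values were seen.

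Complex I is the largest complex, with a matrix arm that holds the flavin and the chain of iron-sulfur clusters and a membrane arm that pumps protons. Its accessory subunit Ndufa1, on chromosome X at 37187588 to 37191163 (GRCm38), was at 70.1, 62.4, 61.2 and 73.3 CPM in WT mice and at 79.5, 91.5, 106 and 101 CPM in KIKO mice. WT mouse 3 was the lowest of all 8 for this gene, unlike for most members. The log2 fold change was 0.50 (SE 0.13, n = 4 per group, edgeR adjusted p = 0.0841). Ndufa6, a matrix-arm subunit of the LYR family, was at 148, 144, 199 and 168 CPM in WT mice and at 239, 244, 206 and 224 CPM in KIKO mice. Its KIKO minimum of 206 lay just above WT mouse 3, with a log2 fold change of 0.47 (SE 0.13, edgeR adjusted p = 0.0980).

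The largest differences of complex I rested more on WT mice 1 and 2. Ndufb2, of the membrane arm, was at 65.6, 79.6, 153 and 112 CPM in WT mice and at 171, 157, 146 and 163 CPM in KIKO mice. WT mice spread from 65.6 to 153 CPM, and WT mouse 3 reached into the narrow range of the KIKO mice. The log2 fold change was 0.64 (SE 0.20, edgeR adjusted p = 0.137). It was 0.90 without WT mouse 3 (edgeR adjusted p = 0.00984), a mouse left out because of such values. Ndufv3, a small matrix-arm subunit, followed with 0.53 (SE 0.17, edgeR adjusted p = 0.156). At the other end, Ndufa2 had a log2 fold change of -0.14 (SE 0.13) and Ndufs6, the zinc-binding subunit, -0.12 (SE 0.12), with groups that overlapped. The median was 0.19 over 17 matrix-arm and 0.23 over 19 membrane-arm subunits.

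Complex II, succinate dehydrogenase, is the only complex with no mitochondrially encoded subunit, and all 4 of its genes could be tested. Sdhb, its iron-sulfur subunit, on chromosome 4 at 140961203 to 140979193 (GRCm38), was at 319, 291, 473 and 295 CPM in WT mice and at 511, 526, 404 and 464 CPM in KIKO mice. Mean levels were 344 ± 86.6 and 476 ± 54.6 CPM (SD, n = 4 each), a fold of 1.38. WT mouse 3 alone overlapped with the KIKO mice, and the log2 fold change of 0.47 (SE 0.16) did not pass (edgeR adjusted p = 0.169). The log2 fold change was 0.66 without that mouse (edgeR adjusted p = 0.0124), which was left out because of such values. Sdha, the flavoprotein that oxidises succinate, was at 281, 266, 311 and 266 CPM in WT mice and at 340, 344, 271 and 327 CPM in KIKO mice, with a log2 fold change of 0.19 (SE 0.12, edgeR adjusted p = 0.469).

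The membrane anchors Sdhc and Sdhd did not share this pattern among mice. Sdhc was at 68.2, 65.1, 72.0 and 82.0 CPM in WT mice and at 65.0, 94.7, 100 and 91.4 CPM in KIKO mice, so 3 KIKO mice lay above all WT mice and KIKO mouse 1 below them. Its log2 fold change was 0.29 (SE 0.15, edgeR adjusted p = 0.342). Sdhd had few counts, with 22, 54, 10 and 31 in WT mice and 21, 19, 86 and 42 in KIKO mice. Its log2 fold change of 0.56 was the largest of the complex but had an SE of 0.45 (edgeR adjusted p = 0.574), and it became -0.04 without KIKO mouse 3. Relative to the other members in the same mouse, complex II lay at -0.02, 0.01, -0.20 and -0.04 in WT mice and at -0.15, 0.09, 0.20 and 0.12 in KIKO mice on the log2 scale.

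**Figure D3:**
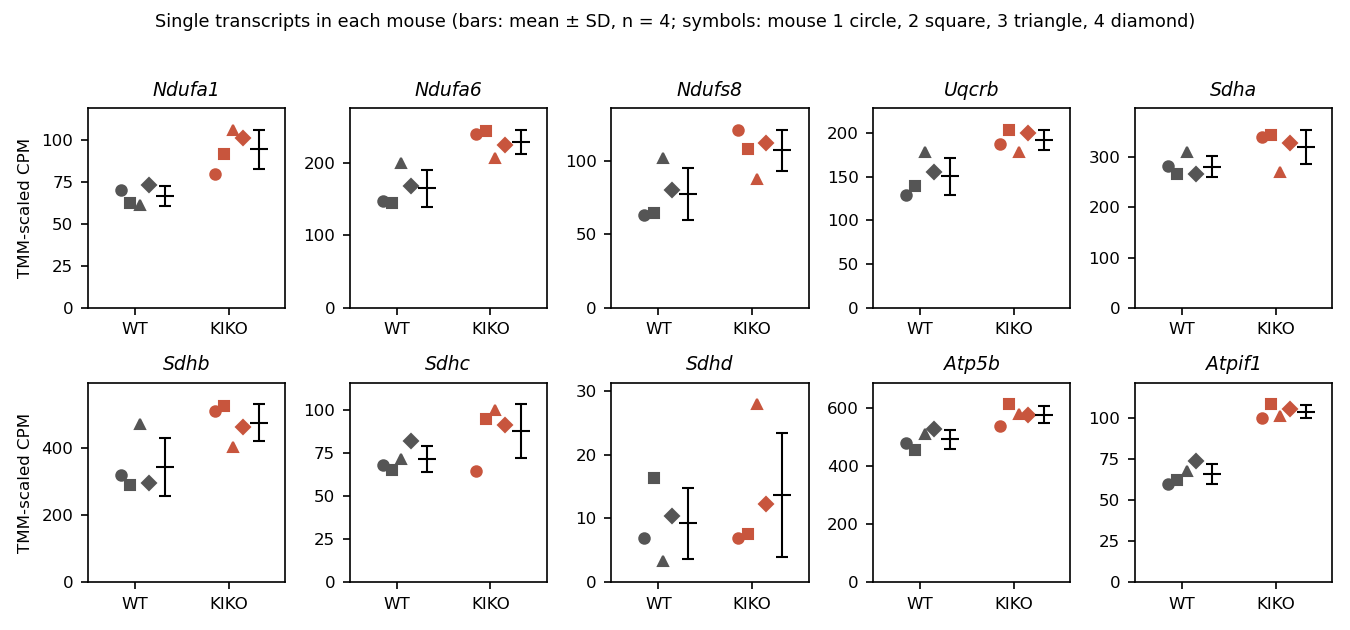
TMM-scaled CPM of 10 transcripts in each of the 8 mice, WT in grey and KIKO in red, with the mean and SD of 4 mice beside the points. The groups are apart for Ndufa1, Ndufa6, Uqcrb, Atp5b and the ATPase inhibitor Atpif1, the Uqcrb groups by less than 1 CPM, and overlap for the other 5.

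Complex III takes electrons from ubiquinol through the Rieske iron-sulfur protein Uqcrfs1 and cytochrome c1, the product of Cyc1. All 9 of its genes lay above 0, from 0.06 for Uqcr11 and 0.10 for Uqcr10, both small membrane subunits that turned to -0.07 and -0.05 with the length and GC trend taken out, to 0.35 for Uqcrb. Uqcrb, which binds near the ubiquinone site, was at 130, 140, 178 and 156 CPM in WT mice and at 187, 203, 178 and 201 CPM in KIKO mice. Groups only just failed to touch, with WT mouse 3 and KIKO mouse 3 both at 178 CPM after rounding, and the test was not passed (SE 0.12, edgeR adjusted p = 0.176). Uqcrfs1 was at 66.3, 77.5, 94.7 and 89.4 CPM in WT mice and at 81.5, 105, 115 and 105 CPM in KIKO mice, a log2 fold change of 0.31 (SE 0.14, edgeR adjusted p = 0.302). Cyc1 had 0.20 (SE 0.14), and the core proteins Uqcrc1 and Uqcrc2 had 0.12 (SE 0.14) and 0.13 (SE 0.12).

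In complex IV, cytochrome c oxidase, the catalytic core is mitochondrially encoded and the nuclear subunits surround it. Cox6c had the highest log2 fold change at 0.43 (SE 0.16, edgeR adjusted p = 0.190). Its levels were 598, 592, 937 and 689 CPM in WT mice and 1070, 982, 800 and 952 CPM in KIKO mice, where WT mouse 3 lay above KIKO mouse 3. Cox7b followed with 0.34 (SE 0.15, edgeR adjusted p = 0.257), the means being 146 ± 31.4 CPM for WT and 185 ± 11.8 CPM for KIKO (SD, n = 4 each). Cox4i1, the largest nuclear subunit, and Cox5b, which binds zinc, had -0.01 (SE 0.12) and -0.02 (SE 0.11). The lowest values belonged to Ndufa4l2, a paralog of Ndufa4 that rises under low oxygen, with -0.51 (SE 0.37, edgeR adjusted p = 0.527), and Cox7a1, the heart and muscle form, with -0.30 (SE 0.24, edgeR adjusted p = 0.581). Both rested on levels under 15 CPM in every mouse.

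Among paralogs of complex IV, the general form was the abundant one throughout. Levels between genes are compared as CPM per kb of transcript, and they assume reads spread along the whole transcript. Cox6a1 was at 1563 CPM per kb in WT and 1626 in KIKO mice, and Cox6a2, the heart and muscle form, at 3.11 and 0.215. Cox4i1 was at 945 and 936 CPM per kb and Cox4i2 at 2.66 and 2.47. Cox7a2 was at 826 and 972 CPM per kb, above Cox7a1 at 28.5 and 23.0. Cox8a was at 965 and 1192 CPM per kb and Cox8b, the form of brown fat and muscle, at 45.8 and 57.4. Cox6b1 stood at 1132 and 1385 CPM per kb beside 13.8 and 15.1 for Cox6b2, a form of testis, and Cox7b2 and Cox8c had no count.

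**Figure D4:**
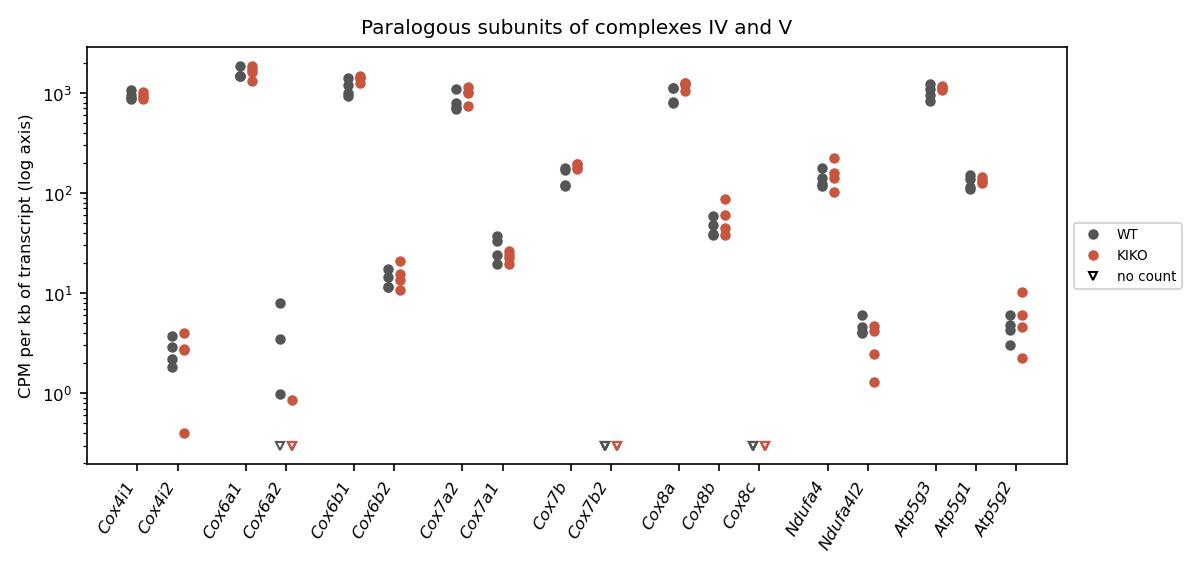
Levels of paralogous subunits of complexes IV and V in each mouse, as TMM-scaled CPM per kb of transcript on a log axis (WT grey, KIKO red; open triangles mark mice with no count). In each family the general form lies far above the others in both genotypes, as Cox6a1 at 1563 and Cox6a2 at 3.11 CPM per kb in WT mice. Levels of Atp5g1 and Atp5g2 are uncertain, since other genes share much of their sequence.

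Cox8b ranged from 13.6 to 31.2 CPM in KIKO and from 13.7 to 21.2 CPM in WT mice, and its log2 fold change was 0.31 (SE 0.24, edgeR adjusted p = 0.574). Cox6a2 had 0, 18, 2 and 7 counts in WT mice and 0, 0, 0 and 2 in KIKO mice and was too low to be tested. The summed level of 14 skeletal muscle markers lay between 34.2 and 88.8 CPM in WT and between 31.1 and 89.8 CPM in KIKO mice, with 2 of 14 high enough to be tested, 0 passing and Myh7 at 0 in every library. Most of the sum was Acta1, with means of 49.7 CPM for WT and 45.8 for KIKO, so it says little about the other markers. Among these, Tnnc2, Tnni2 and Actn3 had higher means in KIKO mice. The rest, Myh7 aside, had lower ones, as Ttn at 4.71 CPM for WT and 1.74 for KIKO. The part of muscle fibres in the Cox6a2 counts was not tested.

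Complex V, ATP synthase, joins a catalytic F1 head to a membrane ring of c subunits by a peripheral stalk. Atp5b, the catalytic beta subunit of the head, was at 480, 455, 512 and 528 CPM in WT mice and at 539, 614, 582 and 579 CPM in KIKO mice. The groups did not overlap, and the log2 fold change was 0.23 (SE 0.11, edgeR adjusted p = 0.340). Atp5f1, the b subunit of the stalk, had the highest value at 0.34 (SE 0.12, edgeR adjusted p = 0.190), with 101, 112, 140 and 119 CPM in the WT mice and 138, 155, 155 and 149 CPM in the KIKO mice. Atp5c1, the rotating gamma subunit, had 0.30 (SE 0.14, edgeR adjusted p = 0.313). Atp5l had the lowest value at -0.11 (SE 0.20), and Atp5j2 had -0.08 (SE 0.11). Both belong to the small membrane subunits, whose median was 0.03 over 4 genes, beside 0.18 over 5 genes of the head and 0.21 over 4 of the stalk.

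The c ring is encoded by 3 genes whose mature proteins are identical. Atp5g3 had most of the counted transcript at 1020 CPM per kb in WT and 1113 in KIKO mice, Atp5g1 was at 129 and 135, and Atp5g2 at 4.56 and 5.76. Near-identical stretches of other genes cover 100% of the Atp5g2 transcript and 59.5% of that of Atp5g1, with no match for Atp5g3. Reads of the former 2 genes could be split, so the true order of levels is uncertain. Log2 fold changes were 0.13 (SE 0.13) for Atp5g3 and 0.07 (SE 0.13) for Atp5g1, so the order of the 3 genes was the same in both genotypes.

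The 7 subunits that hold iron-sulfur clusters had a median log2 fold change of 0.21. All 7 lay above 0 and 0 passed, while the other 74 tested members had a median of 0.17 with 64 above 0. The transcripts of the 7 were longer, at a median of 1142 bases beside 635. With the trend of length and GC content taken out of each library, the median of the 7 was 0.21 with all above 0 and 0 passing, and that of the other members 0.09 with 52 of 74 above 0. The difference between these medians was not tested. Within complex I the cluster-bearing subunits spread over much of its range, from 0.08 (SE 0.13) for Ndufv1, the subunit that holds the flavin, to 0.47 (SE 0.16, edgeR adjusted p = 0.167) for Ndufs8. Ndufs8 was at 63.4, 64.5, 102 and 80.0 CPM in WT mice and at 121, 108, 87.8 and 112 CPM in KIKO mice. Ndufs7, Ndufs1 and Ndufv2 had 0.21 (SE 0.13), 0.19 (SE 0.13) and 0.14 (SE 0.11). Sdhb at 0.47 and Uqcrfs1 at 0.31 were the cluster-bearing subunits of the other 2 complexes. Together the 7 took 0.101% to 0.126% of WT counts and 0.119% to 0.131% of KIKO counts, with WT mouse 3 at the top of the WT range.

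Transcript length moved with genotype across all genes, and subunit transcripts are short. Of the 81 tested members 58 had a transcript under 1 kb (71.6%), beside 12.5% of all tested genes with a length. The log2 fold change of all tested genes had a Spearman's rho of -0.241 with transcript length (11075 genes, which share the same 8 libraries). Genes under 1 kb had a median of 0.12 with 67.2% above 0, and the members among them had a median of 0.17 with 84.5% above 0. Of the 23 members with longer transcripts 22 lay above 0, with a median of 0.19, whereas all genes of 1 kb or more had a median of -0.02 with 46.5% above 0. Within the members, fold change and length had a rho of 0.03 (81 genes).

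**Figure D5:**
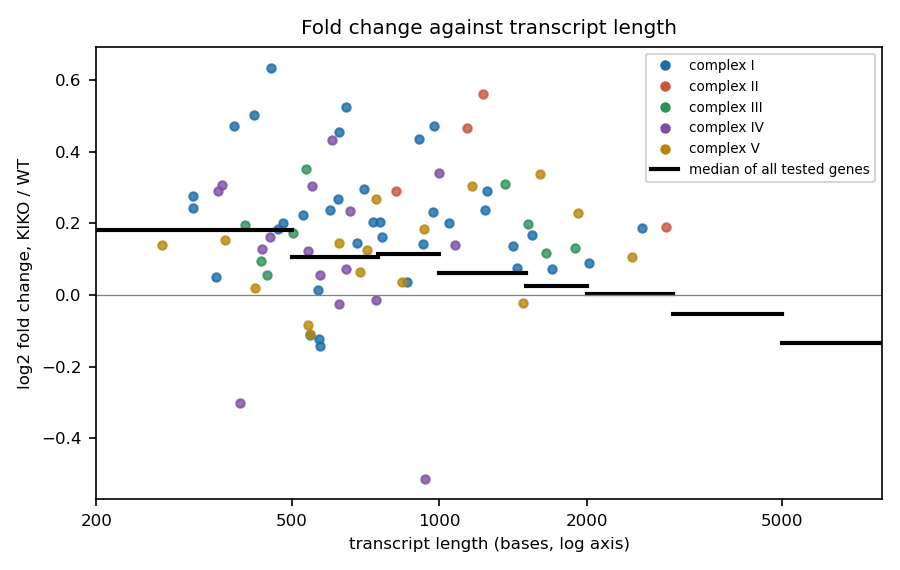
Log2 fold change between KIKO and WT mice of each tested subunit transcript against its length on a log axis, coloured by complex, with black bars for the median of all tested genes in each length class. The bars fall from 0.18 under 500 bases to -0.13 above 5000 bases, and 22 of 23 members of 1 kb or more lie above 0.

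The length trend also separated mice of one genotype. Spearman's rho of transcript length with each gene's deviation from its 8-mouse mean was 0.23, 0.22, -0.09 and 0.09 in WT mice 1 to 4 and -0.13, -0.14, -0.07 and -0.18 in KIKO mice 1 to 4. WT mouse 3 and all KIKO mice were thus on the same side of 0. When a smooth trend of length and GC content was taken out of each library, the median of the members was 0.10 and that of all genes 0.01, with 59 of 81 members above 0 and 0 passing, where 0.388% of all genes passed. The medians of the complexes were then 0.31 for complex II, 0.11 for complex I, 0.10 for complex III, 0.03 for complex IV and 0.02 for complex V. Differences between them were not tested. How much of the offset belongs to length was not tested further.

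Of 89 tested genes that work with the subunits, 1 passed, a share near the 0.677% of all tested genes. Atpif1, the inhibitor that binds the F1 head and blocks hydrolysis of ATP, was at 59.9, 62.7, 68.3 and 74.0 CPM in WT mice and at 100, 109, 102 and 106 CPM in KIKO mice. It rose from 66.2 ± 6.25 to 104 ± 3.97 CPM (SD, n = 4 each), every KIKO mouse lying above every WT mouse, WT mouse 3 included. The log2 fold change was 0.65 (SE 0.12, edgeR adjusted p = 0.0326), and over 21 alternatives it ranged from 0.47 to 0.71 with adjusted p values from 1.5e-04 to 0.159, under the threshold in 12. With the length and GC trend taken out it was 0.51 (edgeR adjusted p = 0.0586). Leaving out WT mouse 2 or 4 or any single KIKO mouse gave edgeR adjusted p values from 0.0513 to 0.159, and the replicate block gave 0.134.

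The other lists of the pathway had no gene that passed. Of 16 tested assembly factors of complex I, 14 lay above 0 with a median of 0.23, from -0.35 (SE 0.22) for Tmem186 to 0.56 (SE 0.25) for Ndufaf5. Assembly factors of complex II (4 tested), III (6) and IV (22) had medians of 0.13, 0.17 and 0.03. Their extremes were Sdhaf4 at -0.12 and Sdhaf1 at 0.25, Ttc19 at -0.40 and Uqcc3 at 0.40, and Taco1 at -0.65 and Pet100 at 0.45. Atpaf1 was the lowest of the 4 genes listed with complex V at -0.20 (SE 0.31). Genes of the mobile carriers cytochrome c and ubiquinone had a median of 0.00 over 13, from Coq8b at -0.51 to Pdss2 at 0.44. Of the 11 tested mitochondrially encoded subunits 9 lay above 0 with a median of 0.14, from mt-Cytb at -0.03 (SE 0.20) to mt-Nd4 at 0.34 (SE 0.21). With the length and GC trend taken out their median was 0.00, with 6 above 0. Several were barely counted, with WT means of 6.99 CPM for mt-Nd3, 4.85 for mt-Nd6 and 8.89 for mt-Co2. Those of mt-Co3 and mt-Atp6 were 11.7 and 10.5 CPM, beside 52941 CPM for mt-Nd4. Regulators of respiratory genes had a median of -0.05 with 4 of 13 above 0, between Pprc1 at -0.40 (SE 0.32) and Gabpa at 0.30 (SE 0.27). None of these ends passed, their edgeR adjusted p values being 0.135 or more.

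Within a genotype, how closely subunits varied together differed between complexes. The residuals of 2 members over the 8 mice, after removing genotype means, had a median correlation of 0.55. It was 0.79 within complex III, 0.61 within complex I, 0.39 within complex V, 0.28 within complex IV and -0.32 within complex II. Sdhd ran opposite to the median of the other members with r = -0.74, and Cox6b2, at under 10 CPM, with r = -0.67. Ndufa1 had r = -0.35, so its order among mice was not that of the offset. All members share the same 8 libraries and their depth, and these correlations are descriptions over 8 mice. Differences between complexes were not tested, and the value of complex II rests on 4 genes, of which Sdhd had 10 to 86 counts.

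Promoters of the members were searched for motifs of known regulators of respiratory genes. RefSeq promoters (GRCm38.p6) were found for 69 of the 86 distinct symbols and gave 74 stretches of 250 bases before a start site. Both strands were searched for the NRF1 motif (GCGCA, any base, then GCGC), the ETS motif CCGGAAG that GABPA binds, the YY1 motif AAGATGGCG and the ERR motif CAAGGTCA, and no matches of different motifs overlapped. The NRF1 motif was in 14 of 74 members' promoters (18.9%) and in 3.74% of all 32851. The ETS motif was in 12 (16.2%, beside 6.91%), the YY1 motif in 1 (1.35%, beside 0.606%) and the ERR motif in 3 (4.05%, beside 1.33%). A motif of any of these kinds was found for 23 of the 69 members, and the stretches below were picked for holding one. They do not show what members' promoters share. Of each complex, a match with up to 20 bases on either side is shown, the motif in capitals. It comes from the member with the smallest p value for which this whole stretch lay outside the annotated gene. The NRF1 motif was taken first where a promoter also held another.
Ndufb4 (complex I, chr16:37654530-37654579, minus strand, NRF1 motif 191 bases before the start): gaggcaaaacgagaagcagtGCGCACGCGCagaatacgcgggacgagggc
Sdha (complex II, chr13:74350309-74350358, minus strand, NRF1 motif 98 bases before the start): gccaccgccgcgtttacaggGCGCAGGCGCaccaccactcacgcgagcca
Uqcr11 (complex III, chr10:80406861-80406907, minus strand, ETS motif 66 bases before the start): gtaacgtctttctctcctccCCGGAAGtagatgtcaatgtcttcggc
Cox6a1 (complex IV, chr5:115349091-115349140, minus strand, NRF1 motif 162 bases before the start): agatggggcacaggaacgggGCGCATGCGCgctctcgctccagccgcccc
Atp5h (complex V, chr11:115420031-115420080, minus strand, NRF1 motif 141 bases before the start): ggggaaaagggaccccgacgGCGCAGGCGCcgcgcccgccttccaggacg

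These 5 genes had log2 fold changes of 0.23 (SE 0.13) for Ndufb4, 0.19 for Sdha, 0.06 for Uqcr11, 0.06 for Cox6a1 and 0.15 (SE 0.12) for Atp5h, and none passed. A match describes the letters of the window and was not tested against the fold changes.

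Markers of cell types were measured beside the subunits. The summed level of 12 adipocyte markers was 65192 to 84949 CPM in WT and 89996 to 100877 CPM in KIKO mice, with 0 of 12 passing. Single markers were less uniform, 8 of 12 lying above 0 around a median of 0.12 (log2). By mean level Car3 was the largest part of the sums, at 31826 CPM for WT and 35948 for KIKO. Cfd followed at 17978 and 29498 CPM, then Fabp4 at 8857 and 9210 and Adipoq at 4366 and 6341. Of 12 macrophage markers 1 passed as higher, Lyz2 at 0.95 (SE 0.18, edgeR adjusted p = 0.0326), and their sum was 1675 to 1916 CPM in WT and 2098 to 2512 CPM in KIKO mice. Of 12 endothelial markers 1 passed as lower, Robo4 at -0.79 (SE 0.15, edgeR adjusted p = 0.0326), with sums of 968 to 1359 and 650 to 1076 CPM. The median of the endothelial markers was -0.35, with 0 of 12 above 0. Of 8 tested mesothelial markers 2 passed as higher, Krt19 at 1.15 (SE 0.21, edgeR adjusted p = 0.0326) and Upk1b at 0.90 (SE 0.17, edgeR adjusted p = 0.0355), with sums of 297 to 432 and 326 to 624 CPM. The median of the mesothelial markers was 0.45, with 7 of 8 above 0. Brown and beige markers summed to 230 to 310 CPM in WT and 196 to 411 CPM in KIKO mice, Cpt1b and Zic1 at 0, and Cidea was at 116 and 45.4 CPM in KIKO mice 1 and 4 and under 20 CPM in the other 6. The part of these cell types in the offset of the subunits was not tested.

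Some subunits share near-identical stretches with other genes, mostly processed pseudogenes, so that reads could be split between genes. In 13 of the 87 members at least 50% of the transcript matched a transcript of another gene at 97% identity or more over 75 bases. Among those described above, the matched share was 62.8% for Uqcrb, 64.6% for Atp5f1, 72.2% for Atp5l, 77.6% for Atp5h, 59.5% for Atp5g1, 100% for Atp5g2 and 50.8% for Ndufb2, and their counts are uncertain to that extent. For 59 members no such match was found.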

How the data were processed

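vWAT of 8 mice was sequenced, with 1 library each. The authors trimmed reads with Trimmomatic, aligned them to GRCm38 with HISAT2 and took StringTie count matrices into DESeq2. The library kit is a stranded mRNA kit in the paper and a digital mRNA-seq service in the sample labels, so read coverage along transcripts and strandedness are uncertain, and levels per kb hold only for full-length reads. The annotation release is not given in the sources used here. The values used were the raw counts per gene that the authors deposited. A second deposited table holds log2 normalized values and served as an alternative. Columns of other samples numbered 0.

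Genotypes were compared with edgeR 4.0.16 under R 4.3.3 (TMM, filterByExpr, quasi-likelihood test, genotype as the only term, Benjamini-Hochberg over 11080 genes, threshold 0.05). The common biological coefficient of variation was 0.160. A 2-sided exact permutation test of single members over 70 assignments of mice passes only where groups do not overlap, so those counts are given in its place. Symbols, positions and lengths came from GENCODE M21 (GRCm38), a length being the lower median of complete coding transcripts. Near-identical stretches were found with BLAST 2.17.0+. Alternatives were other normalizations and filters, DESeq2 1.42.0, limma 3.58.1 (voom, and trend on the authors' log2 values), a length and GC offset (mgcv 1.9.3), the replicate number as a block, and leaving out each mouse. The offset with the longest transcript and a filter of 10 counts in all 8 libraries were added after the data were seen. Each fitting step was first tested on simulated counts of known fold change. There the test called 78.9% of 2-fold and 27.6% of 1.5-fold changes, so differences as small as most of those described here could be missed. No same-genotype libraries were duplicates (chi-square per degree of freedom 4.05 to 21.1).

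The members and lists were chosen with earlier results of these data known. The targeted gene is not reported here. Genes named are, by rule, members that passed, the 2 highest and 2 lowest log2 fold changes of each complex, iron-sulfur subunits, complex II, paralogs, and the highest and lowest gene of each pathway list. Other names were chosen after their values were seen. Markers of cell types came from lists of 8 types. Measurements other than RNA-seq were not analysed here.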

Additional observations from a re-analysis of the deposited data

Results flagged for a closer look

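In groups of 4 mice, 6 of 82 groups scored held a mouse whose gap to the nearest other exceeded the limit that chance passes in about 1 in 20 groups. Sdhb stood at 473 CPM in WT mouse 3, where the other WT mice lay between 291 and 319 CPM. Cox6a1 stood at 1058 CPM in WT mouse 3, beside 831 to 841 CPM in the other WT mice. Atp5l stood at 16.7 CPM in WT mouse 2, beside 23.1 to 24.4 CPM in the others. Ndufs1 stood at 119 CPM in KIKO mouse 1, beside 91.7 to 96.4 CPM in the other KIKO mice. KIKO mouse 3 held 0.241% of its counts in complex III and 0.495% in complex IV, where the other KIKO mice had 0.271% to 0.277% and 0.557% to 0.569%. The cause of these gaps was not tested.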

How the results depend on the processing

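Over all alternatives the median log2 fold change of the members stayed above 0. All genes passing numbered 75, and 382 with no filter on low counts, 284 with DESeq2, 40 with limma-voom, 45 with limma-trend on the authors' log2 values, 43 with the length and GC offset, 35 with its longest-transcript form, and 0 to 654 when a mouse was left out. Members higher in KIKO mice numbered 0, and 2 with no filter (Ndufb2 and Ndufa1, beside 0.807% of all genes), 2 with DESeq2 and 0 to 10 when a mouse was left out. With no filter 1 member was lower, Cox6a2 with 0 to 18 counts (log2 fold change -3.41, adjusted p = 0.0430, beside 1.30% of all genes). The replicate block passed 0 genes (smallest member adjusted p 0.218). Deviations of same-numbered mice correlated at -0.15, -0.13, -0.11 and 0.03, and those of other pairs of mice from -0.09 to 0.23. Same numbers thus showed no closer match, but 4 mice per group are too few to exclude a pairing. The stricter filter kept the same 11080 genes as the default.

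Medians of complexes IV and V were -0.0140 and -0.0128 with the longest-transcript offset, and that of complex II ranged from 0.246 (without KIKO mouse 3) to 0.423 when a mouse was left out. Among members near 0, log2 fold changes turned sign with total counts for Uqcr11 (-0.0106), Cox6a1 (-0.0138) and Atp5g1 (-0.00155), and with limma-trend for Cox4i1 (0.00624). With the length and GC offset they turned for Uqcr11 (-0.0702), Uqcr10 (-0.0476), Cox6a1 (-0.0550), Cox6b2 (-0.0288) and Atp5g1 (-0.0438). With its longest-transcript form they turned for Uqcr11 (-0.114), Uqcr10 (-0.0973), Cox6a1 (-0.0990), Cox6b2 (-0.0497), Atp5g3 (-0.0279) and Ndufa4 (-0.00110). Leaving out a mouse spread Sdhd from -0.0390 to 0.995, Uqcr11 from -0.0102 to 0.157, Cox6a1 from -0.0102 to 0.153, Cox4i1 from -0.0554 to 0.0553, Cox6b2 from -0.0659 to 0.266, Ndufa4 from -0.0559 to 0.319, Atp5g1 from -0.000936 to 0.158 and Atp5l from -0.263 to 0.0198. The cause was not tested. At these depths 6 of 87 members had too few counts to be tested.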
